A study of Rattus norvegicus with 6 samples.

Results

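The ribosome biogenesis and nucleolar genes are 42 rat genes chosen by gene symbol. They encode Myc and its partner Max, subunits and factors of RNA polymerase I, proteins that organise the nucleolus, small nucleolar ribonucleoproteins, and factors that process the precursors of the small and the large ribosomal subunit. The deposited table of 32623 genes held 41 of the 42 under these symbols (Heatr1 was not matched), and 39 had enough counts to be tested among 14298 genes. Messenger RNA was measured by sequencing of polyadenylated RNA in 6 rat liver libraries. GZM is the liver of 3 samples after embolization with zinc sulfide microspheres, and GM is the liver of 3 samples after embolization with blank microspheres, the control. Embolization cuts off blood flow through the arteries it fills, and the title names hepatocellular carcinoma as the disease. The labels give no strain, age, dose or time after embolization for either group, nor whether tumour was part of the tissue taken. They number the samples of a group as replicates without saying that these are separate animals, so that p-values measure the spread between these samples only.

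In the nucleolus, RNA polymerase I copies the ribosomal DNA into a long precursor RNA, which is cut, chemically modified at many positions by small nucleolar ribonucleoproteins, and assembled with ribosomal proteins into the small and the large subunit. The transcription factor Myc, bound to DNA together with Max, is known to raise the transcription of many genes at each of these steps. The adult liver runs this pathway at a low rate, and regenerating liver and hepatocellular carcinoma run it at a higher one.

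Of the 39 tested genes, 23 were lower in GZM than in GM and 0 were higher, by edgeR's quasi-likelihood test with Benjamini-Hochberg adjustment over all tested genes at a threshold of 0.05. At an unadjusted p under 0.05, and with DESeq2, the number higher was also 0. Over all genes tested, 21.7 percent were called lower and 22.2 percent higher. The log2 fold change of GZM over GM was negative for 37 of the 39, with a median of -0.86, a fold of 1.82, against a median of -0.09 over all genes tested. It ran from -1.59 for Tcof1 to 0.23 for Dkc1. Every tested gene was well above the detection limit, and the lowest level in any library was 9.83 CPM (counts scaled to a common library size with TMM factors, edgeR's correction for library composition) for Utp15 in GZM 1. In 32 of the 39 genes all 3 GZM libraries lay below all 3 GM libraries, and 29.7 percent of all genes tested did so. The number of calls depended on single libraries. It was 14 without GZM 1 (17.1 percent of all genes tested), 9 without GZM 2 (11.2 percent), 10 without GZM 3 (13.3 percent), 18 without GM 1 (14.3 percent) and 18 without GM 2 (18 percent). The median log2 fold change was -0.82, -0.84 and -0.82 without GZM 1, 2 or 3 in turn. It was -0.88, -0.52 and -0.93 without GM 1, 2 or 3.

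**Figure D1:**
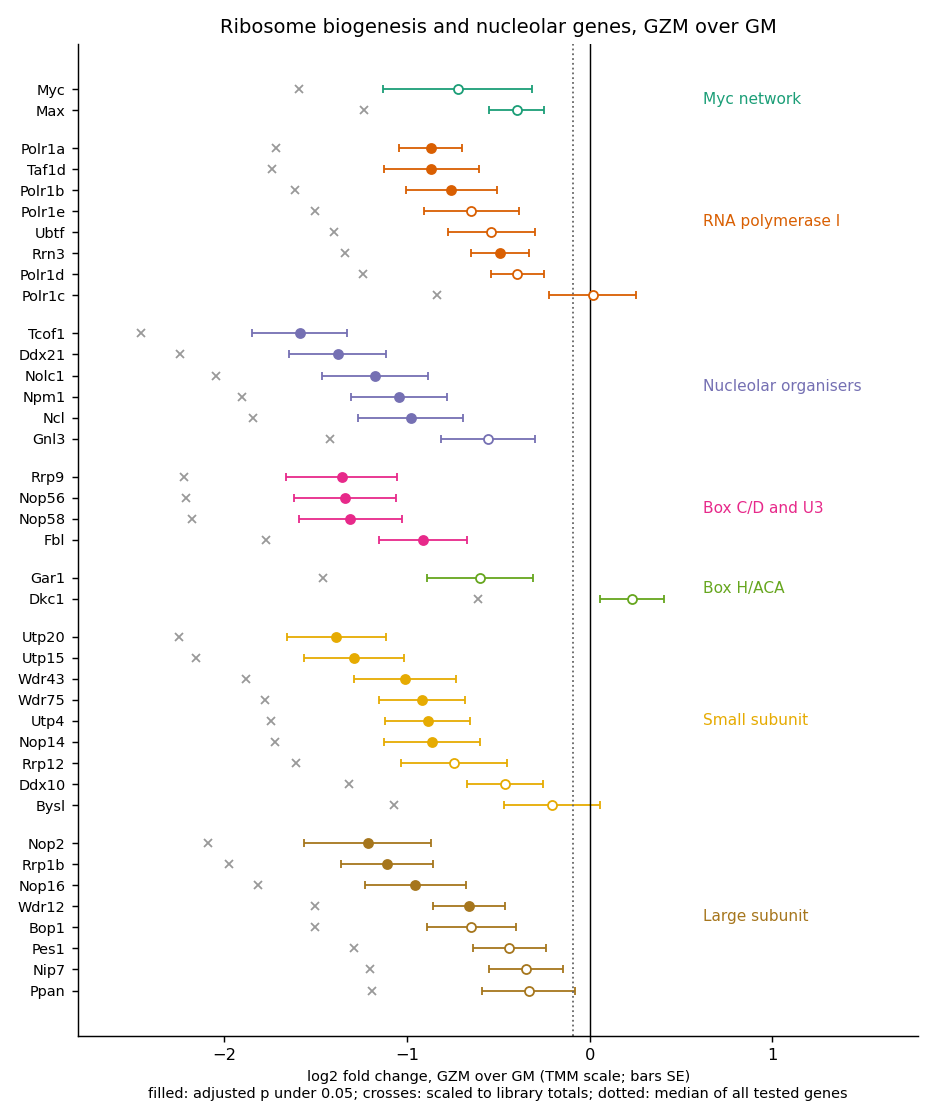
Log2 fold change of GZM over GM for the 39 tested genes, by role, with bars of 1 SE on the TMM scale; filled points passed the test (adjusted p under 0.05), crosses are the values scaled to library totals, and the dotted line is the median of all genes tested (-0.09). The box C/D and U3 proteins and most nucleolar organisers sit near or beyond -1, while Polr1c and Dkc1 lie at or above 0 on the TMM scale.

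The scale on which the libraries are compared set the size of these differences. TMM factors were 0.742, 0.715 and 0.793 in GZM 1 to 3 and 1.43, 1.42 and 1.17 in GM 1 to 3. When counts were scaled to library totals instead, all 39 genes were called lower in GZM with a median of -1.72. On that scale 59.5 percent of all genes tested were called lower, and the median over all genes was -0.92. As shares of all counts, the members' transcripts summed to 0.167 ± 0.00902 percent in GZM and to 0.561 ± 0.226 percent in GM (mean ± SD of 3 libraries a group). In bulk samples, fewer cells of a type and less RNA per cell cannot be told apart.

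The GM libraries were spread more widely than the GZM libraries. Summed over the members, TMM-scaled levels were 2171, 2282 and 2241 CPM in GZM 1 to 3, against 3766, 5635 and 2974 CPM in GM 1 to 3. All 3 GZM libraries lay below the lowest GM library, and GM 2 stood well above both other GM libraries. GM 2 held the highest of the 6 values for 38 of the 39 genes, a position it held for 29.3 percent of all genes tested. Among the GM libraries, GM 3 was the lowest for 32 genes and GM 1 for 7. The median coefficient of variation over the 39 genes was 8.53 percent in GZM and 34.6 percent in GM, where all genes tested had 15.2 percent in GZM and 22.6 percent in GM.

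**Figure D2:**
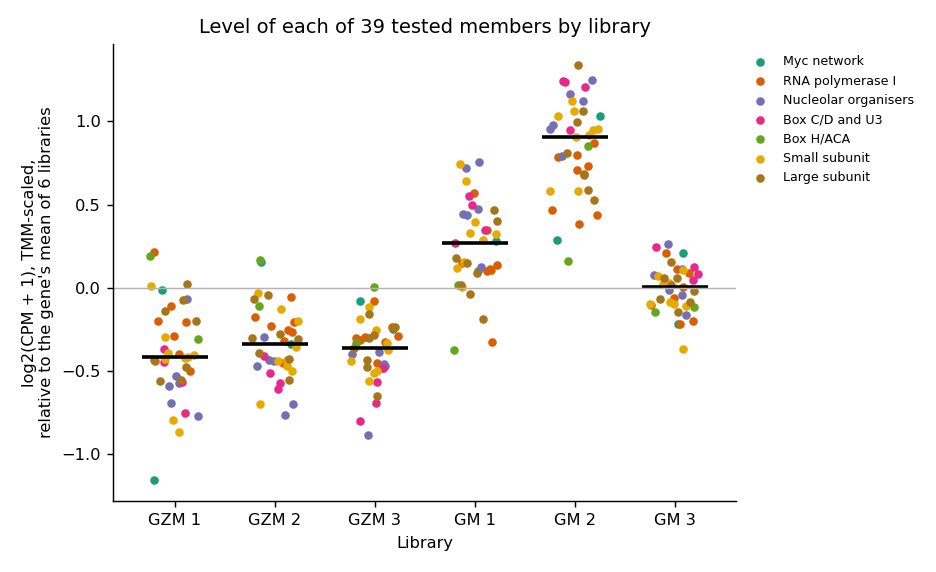
Level of each of the 39 tested genes in each library, as log2(CPM + 1) on the TMM scale relative to the gene's mean over the 6 libraries; points are genes coloured by role and black bars are medians. The 3 GZM libraries lie together below 0, and GM 2 lies above GM 1 and GM 3.

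Markers of dividing cells and of some cell types also differed between the groups, not all in the same direction. Of 12 markers of cycling cells, such as Mki67 and Top2a, 12 were lower in GZM. Their summed levels were 243, 275 and 269.6 CPM in GZM 1 to 3, against 1144, 1515 and 607 CPM in GM 1 to 3, so the GM libraries had the same order as for the biogenesis genes. Of 15 hepatocyte markers, such as Alb and Apoa1, 14 were higher in GZM. They held 13.2, 13.4 and 12.7 percent of all counts in GZM 1 to 3 and 3.53, 2.53 and 7.72 percent in GM 1 to 3, with GM 2 lowest and GM 3 highest. Of 7 macrophage markers, 5 were lower and 1 higher, with sums of 1463 to 2027 CPM in GZM and 3094 to 5105 CPM in GM. Of 5 endothelial markers, 4 were higher in GZM. The other lists gave few calls: cholangiocytes 1 higher of 6, T cells 1 lower of 7, B and plasma cells 0 of 5. Likewise 1 of 5 neutrophil markers and 1 of 6 stellate cell and fibroblast markers were lower, and 1 of 4 erythroid markers was higher. For all genes tested the shares were 21.7 percent lower and 22.2 percent higher. No marker of these lists was at 0 in every library. The part of these cell types in the differences of the biogenesis genes was not tested.

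Within the Myc network, neither tested gene passed by edgeR on the TMM scale or by DESeq2. At an unadjusted p under 0.05 only Max did. Scaled to library totals, both were called lower, as were 59.5 percent of all genes tested. Max also passed with upper-quartile factors (edgeR adjusted p = 0.0239). Myc had 38.0, 95.8 and 81.2 CPM in GZM 1 to 3, against 104, 177 and 73.7 CPM in GM 1 to 3. The groups overlapped, because GM 3 lay below GZM 2 and GZM 3, and GZM 1 was the lowest of all. Its log2 fold change was -0.72 with a standard error (SE) of 0.41 (edgeR adjusted p = 0.181). Max, the protein with which Myc binds DNA, had 71.0, 56.5 and 60.1 CPM in GZM 1 to 3 and 77.0, 87.6 and 82.9 CPM in GM 1 to 3. These values did not overlap, and the log2 fold change of -0.40 (SE 0.15) missed the threshold (edgeR adjusted p = 0.0635). Mycn, a close relative of Myc, was too low to test, with 7, 1 and 5 counts in GZM 1 to 3 and 4, 6 and 2 counts in GM 1 to 3.

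Myc and Max bind the E-box, CACGTG, which reads the same on both strands, and promoters of the listed genes were searched for it because so many of these genes moved together. RefSeq promoters of the GRCr8 build, from 250 bases before to 50 bases after the start of the gene, were at hand for 38 of the 42 genes (not for Bop1, Myc, Mycn and Wdr43). The E-box was in 11 of the 38, or 28.9 percent, against 8.85 percent of 11565 promoters of tested genes matched by symbol and 6.42 percent of all 33469 promoters. Promoters of other biogenesis factors held it in 28 of 109 cases, or 25.7 percent, a share close to that of the listed genes. Among promoters of the listed genes it was in 5 of the 22 whose gene was lower in GZM and in 6 of the 14 whose gene was tested and did not pass. CACGCG, searched on both strands and sharing no bases with an E-box in these promoters, was in 17 of the 38 (44.7 percent), against 15.9 percent for tested genes and 8.5 percent for all promoters. The G and C content averaged 59.2 percent in the promoters of the listed genes and 60 percent in those of tested genes. These matches describe letters in a window and say nothing of binding in these livers. The 7 promoters with the E-box before the start are printed here, since they let the sites of genes that were lower and of genes that did not pass be set side by side. Each window holds 44 bases, 5′ to 3′ on the strand of the gene, with the E-box in capitals and 19 bases on each side.
Utp4: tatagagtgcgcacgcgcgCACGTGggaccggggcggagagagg
Utp20: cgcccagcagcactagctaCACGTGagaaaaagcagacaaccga
Wdr75: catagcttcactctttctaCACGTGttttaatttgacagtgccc
Gnl3: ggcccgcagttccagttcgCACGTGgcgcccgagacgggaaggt
Max: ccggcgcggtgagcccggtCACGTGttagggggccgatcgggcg
Pes1: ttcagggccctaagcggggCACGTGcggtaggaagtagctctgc
Dkc1: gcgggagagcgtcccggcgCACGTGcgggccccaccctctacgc

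In GRCr8 these windows lie at chr19:51702197-51702240 on the plus strand for Utp4, chr7:25102952-25102995 on the minus strand for Utp20, and chr9:55395053-55395096 on the plus strand for Wdr75, the 3 genes that were lower in GZM. For the 4 genes that did not pass, they lie at chr16:6219783-6219826 on the minus strand for Gnl3, chr6:101395299-101395342 on the minus strand for Max, chr14:83074277-83074320 on the plus strand for Pes1, and chrX:157751448-157751491 on the plus strand for Dkc1. The E-box starts 25 bases before the gene in both Utp4 and Gnl3, and 33 bases before it in Max, 50 in Pes1, 127 in Utp20, 160 in Wdr75 and 184 in Dkc1. Fbl and Nop2, which were lower, and Rrp12 and Bysl, which did not pass, hold the E-box after the start. Whether the E-box or its distance bears on the differences was not tested.

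RNA polymerase I was represented by 8 genes, of which 4 (50 percent) were lower in GZM and none was higher. Over all genes tested, 21.7 percent were lower and 22.2 percent higher. The median log2 fold change of the 8 was -0.59. Polr1a (ENSRNOG00000009545), the largest subunit and part of the catalytic core, had 34.5, 35.7 and 39.8 CPM in GZM 1 to 3, against 63.1, 81.1 and 57.1 CPM in GM 1 to 3. Every GZM library lay below every GM library, and Polr1a fell by 0.87 on the log2 scale (SE 0.17, edgeR adjusted p = 0.00636). Polr1b, the other subunit of the catalytic core, had 19.4, 20.5 and 20.8 CPM in GZM 1 to 3 and 28.5, 48.0 and 25.9 CPM in GM 1 to 3. It fell by 0.76 (SE 0.25, edgeR adjusted p = 0.0392), but the adjusted p was between 0.0530 and 0.112 when GM 1, GM 2 or any single GZM library was left out. The other calls were Taf1d, a subunit of the factor that marks the ribosomal DNA promoter (-0.87), and Rrn3, which brings the polymerase to that promoter (-0.49). The call of Taf1d was lost without GM 1, GM 2 or any single GZM library (edgeR adjusted p from 0.0740 to 0.0927). Rrn3 passed in 4 of 13 alternative settings, with an adjusted p of 0.0522 by DESeq2 and of 0.0708 to 0.141 by edgeR without GM 1, GM 2 or any single GZM library. Polr1e, a further subunit, had a log2 fold change of -0.65 (SE 0.26) without overlap of the groups. It did not pass (edgeR adjusted p = 0.0761).

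Among the listed subunits, those shared with another polymerase gave values nearer to 0 than the rest. Polr1c, common to RNA polymerases I and III, had 34.9, 28.8 and 28.3 CPM in GZM 1 to 3, against 23.6, 41.6 and 25.6 CPM in GM 1 to 3, and the groups overlapped. Its log2 fold change was 0.02 (SE 0.24, edgeR adjusted p = 0.960), and -0.83 when scaled to library totals. Polr1d, also common to both, had 45.0, 41.4 and 41.1 CPM in GZM 1 to 3 and 52.2, 63.9 and 51.8 CPM in GM 1 to 3. Its log2 fold change of -0.40 (SE 0.15) did not pass (edgeR adjusted p = 0.0580). Per exon length it was the most abundant of the 8, at 33.5 FPKM (the count per exon length, scaled to library totals) in GZM and 79.2 FPKM in GM. A ratio of 2 genes within a library does not depend on the scaling of the libraries. Polr1a over Polr1c, per exon length, was 0.219, 0.275 and 0.312 in GZM 1 to 3, against 0.592, 0.431 and 0.494 in GM 1 to 3, with no overlap. Polr1b over Polr1c averaged 0.236 ± 0.0348 (SD, n = 3) in GZM and 0.398 ± 0.0355 (SD, n = 3) in GM, again with no overlap, though Polr1c is the subunit of highest log2 fold change and both numerators were called lower. Ubtf, the factor that keeps ribosomal DNA open and active, had 131, 130.3 and 119.6 CPM in GZM 1 to 3 and 162, 251 and 139.8 CPM in GM 1 to 3. These values did not overlap, yet the log2 fold change of -0.54 (SE 0.24) did not pass (edgeR adjusted p = 0.100).

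Of 6 tested genes of proteins that organise the nucleolus, 5 were lower in GZM (83.3 percent), against 21.7 percent of all genes tested. Their median log2 fold change was -1.11. Tcof1 (ENSRNOG00000026108) encodes treacle, which ties RNA polymerase I to the ribosomal DNA and to early processing. It had 20.9, 18.1 and 16.6 CPM in GZM 1 to 3, against 52.5, 76.2 and 38.0 CPM in GM 1 to 3. The highest GZM library was well below the lowest GM library, and Tcof1 fell by 1.59 (SE 0.26, edgeR adjusted p = 0.00364), more than any other listed gene. Npm1 (ENSRNOG00000004616), nucleophosmin, an abundant histone and ribosome chaperone, had 380.0, 424 and 413 CPM in GZM 1 to 3 and 779, 1111 and 619 CPM in GM 1 to 3. It fell by 1.04 (SE 0.26, edgeR adjusted p = 0.0150), with adjusted p of 0.0599 without GZM 2 and 0.0576 without GZM 3. Per exon length Npm1 was the most abundant of all listed genes, at 190 FPKM in GZM and 709 FPKM in GM.

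Ncl, nucleolin, binds the nascent precursor RNA. It had 398, 424 and 436 CPM in GZM 1 to 3, against 783, 1139 and 559 CPM in GM 1 to 3. Ncl fell by 0.98 (SE 0.29, edgeR adjusted p = 0.0263), and the adjusted p was 0.0514 without GM 2 and 0.0654 without GM 1. Without a single GZM library it ran from 0.0745 to 0.0929. Between both of these abundant transcripts the ratio stayed within its spread. Npm1 over Ncl per exon length was 1.54, 1.61 and 1.53 in GZM 1 to 3 and 1.60, 1.57 and 1.78 in GM 1 to 3, and these groups overlapped. Nolc1, a chaperone of small nucleolar ribonucleoproteins and a partner of treacle, had 51.0, 59.7 and 60.3 CPM in GZM 1 to 3 and 116, 188 and 82.4 CPM in GM 1 to 3. It fell by 1.18 (SE 0.29, edgeR adjusted p = 0.0143), with an adjusted p of 0.0507 without GZM 2. Ddx21, an RNA helicase that links polymerase I transcription to processing, fell by 1.38. Gnl3, nucleostemin, a GTP-binding protein abundant in stem cells, had a log2 fold change of -0.56 with overlapping groups and did not pass.

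The box C/D ribonucleoproteins carry the 2′-O-methylation of ribosomal RNA, and with the U3 RNA they guide early cuts of the precursor. All 4 listed genes were lower in GZM, where 21.7 percent of all genes tested were lower. In none did the groups overlap, and in 29.7 percent of all genes tested every GZM library lay below every GM library. The median log2 fold change of the 4 was -1.33. Fbl, fibrillarin, the methyltransferase itself, had 48.4, 47.0 and 44.6 CPM in GZM 1 to 3, against 75.7, 122 and 64.9 CPM in GM 1 to 3. It fell by 0.91 (SE 0.24, edgeR adjusted p = 0.0183), with adjusted p of 0.0660 without GZM 2 and 0.0664 without GZM 3. Nop56 (ENSRNOG00000007128), a scaffold of the particle, had 51.2, 49.9 and 47.0 CPM in GZM 1 to 3 and 109, 183 and 83.5 CPM in GM 1 to 3. It fell by 1.34 (SE 0.28, edgeR adjusted p = 0.00779), beside its partner Nop58, which fell by 1.31 (SE 0.28). Rrp9, a protein of the U3 particle, had 12.9, 11.8 and 9.89 CPM in GZM 1 to 3 and 23.1, 43.9 and 21.5 CPM in GM 1 to 3. It fell by 1.36 (SE 0.30, edgeR adjusted p = 0.00968).

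The box H/ACA ribonucleoproteins convert uridine to pseudouridine. Their 2 tested genes gave no call by edgeR on the TMM scale or by DESeq2, nor at an unadjusted p under 0.05. Over all genes tested, 21.7 percent were lower and 22.2 percent higher. Scaled to library totals, both tested genes were called lower, as were 59.5 percent of all genes tested. Dkc1 (ENSRNOG00000055562), dyskerin, the pseudouridine synthase and also a part of telomerase, had 58.3, 57.2 and 51.0 CPM in GZM 1 to 3, against 39.0, 56.9 and 45.9 CPM in GM 1 to 3. The groups overlapped, and Dkc1 was the only tested gene of the list whose highest value was in a GZM library, GZM 1. Its log2 fold change was 0.23 (SE 0.17, edgeR adjusted p = 0.305), and -0.61 when scaled to library totals (edgeR adjusted p = 0.0249). Gar1, another protein of the particle, had 13.1, 15.3 and 13.0 CPM in GZM 1 to 3 and 16.7, 30.7 and 15.2 CPM in GM 1 to 3. Its log2 fold change of -0.60 (SE 0.29) did not pass (edgeR adjusted p = 0.128). Nhp2, the RNA-binding protein of the particle, was too low to test, with 3, 2 and 2 counts in GZM 1 to 3 and 5, 28 and 9 counts in GM 1 to 3. Whether this row of the table holds the reads of the gene was not tested, so these counts may not give its level.

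Ratios within a library set both kinds of particle side by side. Nop56 over Dkc1 per exon length was 0.911, 0.903 and 0.954 in GZM 1 to 3, against 2.89, 3.33 and 1.89 in GM 1 to 3. Nop58 over Dkc1 was 0.896, 1.08 and 1.17 in GZM 1 to 3 and 3.35, 3.62 and 2.05 in GM 1 to 3. The box C/D scaffolds were thus close to level with dyskerin in every GZM library and above it in every GM library. Fbl over Dkc1 averaged 1.41 ± 0.0472 in GZM and 3.07 ± 0.631 in GM, and Tcof1 over Dkc1 averaged 0.157 ± 0.0104 in GZM and 0.552 ± 0.140 in GM, all as mean ± SD of 3 libraries. No ratio in this paragraph overlapped between groups, but Dkc1 has the highest log2 fold change of the list and the other genes of these ratios were called lower, so this direction follows from the choice of genes. Bop1 over Pes1, chosen as members of 1 complex, averaged 0.330 ± 0.0535 in GZM and 0.373 ± 0.0447 in GM, and the groups overlapped. With 3 libraries against 3 a 2-sided exact permutation test cannot give a p under 0.1, so these ratios are given with no test.

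**Figure D3:**
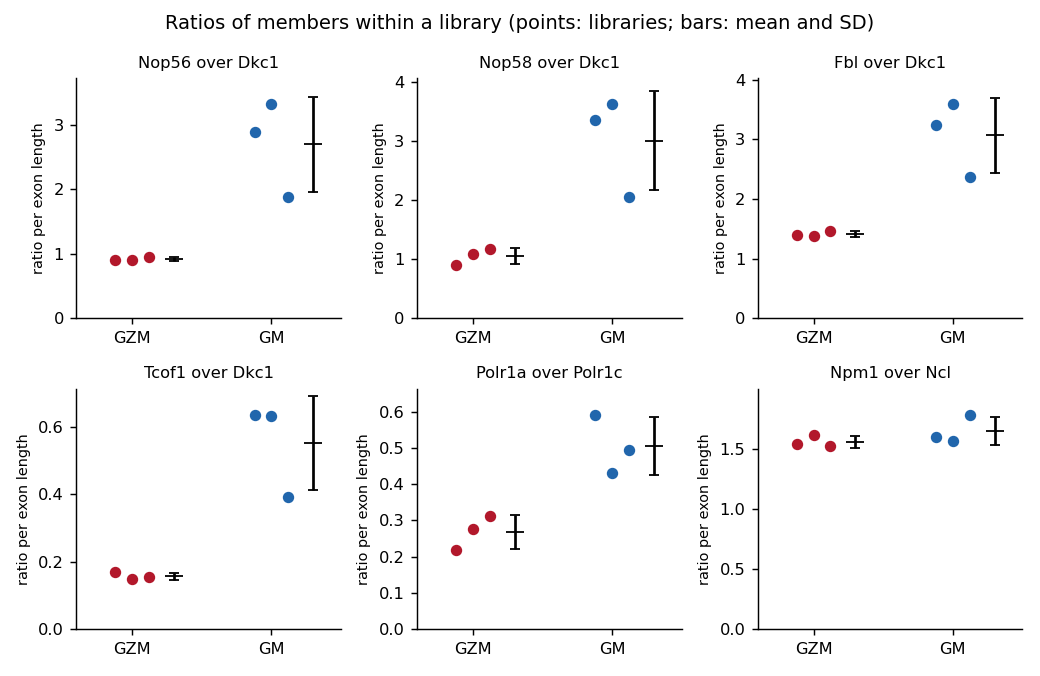
Ratios of listed genes within each library, per exon length, which do not depend on how libraries are scaled; points are libraries and bars the mean ± SD. Ratios over Dkc1 and over Polr1c are lower in all 3 GZM libraries than in all 3 GM libraries, while Npm1 over Ncl overlaps between groups.

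Factors of the small subunit processome, the particle that forms on the nascent precursor, were tested for 9 genes. Of these, 6 were lower in GZM (66.7 percent), against 21.7 percent of all genes tested. The median log2 fold change of the 9 was -0.89. Wdr43, Wdr75, Utp4 and Utp15 belong to the early subcomplex that also takes part in polymerase I transcription, and all 4 were lower. Wdr43, the most abundant of the 9 per exon length at 10.0 FPKM in GZM and 36.9 FPKM in GM, had 47.0, 46.9 and 44.2 CPM in GZM 1 to 3, against 84.1, 134 and 60.0 CPM in GM 1 to 3. It fell by 1.01 (SE 0.28, edgeR adjusted p = 0.0208), with adjusted p from 0.0530 to 0.0704 when a single GZM library was left out. Wdr75 fell by 0.92, Utp4 by 0.89 and Utp15 by 1.29. The calls of Wdr75 and Utp4 were lost without GZM 2 or GZM 3 (edgeR adjusted p from 0.0565 to 0.0694). Utp20, a very large scaffold protein, had 20.2, 21.7 and 26.1 CPM in GZM 1 to 3 and 60.7, 79.3 and 37.7 CPM in GM 1 to 3. It showed the largest fall of the 9, by 1.39 (SE 0.27, edgeR adjusted p = 0.00608). Nop14 fell by 0.86, with an edgeR adjusted p from 0.0519 to 0.108 without GM 1, GM 2 or any single GZM library. Rrp12, a factor of subunit export, had -0.74 and Ddx10, an RNA helicase, -0.46, and neither passed. Bysl, bystin, needed late in small subunit maturation, had -0.21 (SE 0.26, edgeR adjusted p = 0.544), and 0.11 without GM 2.

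Large subunit factors gave 4 lower genes of 8 (50 percent), against 21.7 percent of all genes tested. Their median log2 fold change was -0.65. Nop2, a methyltransferase of the large subunit RNA, had 39.3, 39.6 and 41.9 CPM in GZM 1 to 3, against 77.5, 150.0 and 52.8 CPM in GM 1 to 3. It fell by 1.22 (SE 0.35, edgeR adjusted p = 0.0246), the largest fall of the 8, with adjusted p from 0.0653 to 0.0804 when a single GZM library was left out. Nop16, which per exon length had 25.3 FPKM in GZM, nearly the same as Pes1 at 25.4 FPKM, and 89.0 FPKM in GM, the highest of the 8 there, had 37.1, 44.4 and 40.4 CPM in GZM 1 to 3 and 62.6, 116 and 57.4 CPM in GM 1 to 3. It fell by 0.95 (SE 0.27, edgeR adjusted p = 0.0252), and the adjusted p ran from 0.0656 to 0.0759 without a single GZM library. Rrp1b fell by 1.11.

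Pes1, Bop1 and Wdr12 form 1 complex, which is needed to cut the spacer that precedes the large subunit RNA. Wdr12 fell by 0.66, and this call was lost without any single GZM library (edgeR adjusted p from 0.0529 to 0.114). Bop1 had 24.7, 27.6 and 30.1 CPM in GZM 1 to 3, against 37.5, 59.8 and 31.6 CPM in GM 1 to 3, with a log2 fold change of -0.65 (SE 0.25) that did not pass (edgeR adjusted p = 0.0646). Pes1 had 77.0, 65.3 and 68.8 CPM in GZM 1 to 3 and 81.9, 122 and 82.1 CPM in GM 1 to 3, with a log2 fold change of -0.44 (SE 0.20) that did not pass either (edgeR adjusted p = 0.107). In both genes all GZM libraries lay below all GM libraries, though GZM 3 and GM 3 of Bop1, and GZM 1 and GM 1 of Pes1, were close. Nip7 (-0.35) and Ppan (-0.33), both factors of early large subunit particles, did not pass.

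Across 13 alternative settings, which changed the scaling, the filter, the tool or the libraries, 9 of the 23 calls held in all: Polr1a, Tcof1, Ddx21, Nop56, Nop58, Rrp9, Utp15, Utp20 and Rrp1b. They include 1 polymerase subunit, 2 nucleolar organisers, 3 box C/D proteins, 2 small subunit factors and 1 large subunit factor. Without GZM 2, where 11.2 percent of all genes tested were called lower, these 9 were the only members called. How many of all genes held in all 13 settings was not counted. The 9 are therefore not shown to be steadier than other called genes. None of the 39 genes was called higher under any of the 13.

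**Figure D4:**
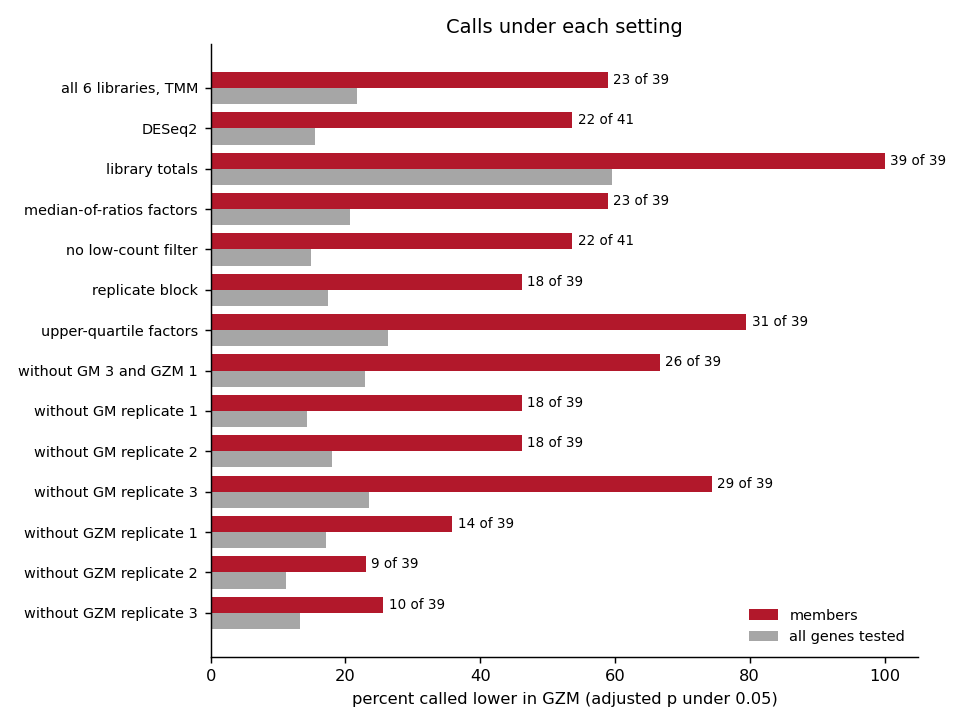
Percent of genes called lower in GZM under each setting, for the tested members of the list (red, with counts) and for all genes tested (grey). The members' share is above that of all genes in every setting, from 9 of 39 genes without GZM 2 to all 39 with library totals.

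Some counts could hold reads of other genes, since the labels describe strand-specific libraries but no source used here states whether counting used the strand. Taf1d overlaps Cep295 on the opposite strand, a gene with 2602 counts over the 6 libraries that was itself lower in GZM (-1.82, edgeR adjusted p = 0.00226). It also overlaps 9 genes of the table on its own strand, among them AC105648.11 with 186 counts. All 10 overlapping genes held 3066 counts, beside 2977 of Taf1d. Bop1 overlaps Mroh1 on the opposite strand, with 4246 counts and a log2 fold change of 0.24 (edgeR adjusted p = 0.255). Fbl shares bases with Dyrk1b on the same strand, which had 580 counts and a log2 fold change of 0.52 that did not pass. Ncl, Nop56, Nop58, Gnl3 and Wdr43 each host 2 described small nucleolar RNAs, whose rows lie inside the gene and may take reads from it or give reads to it.

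The pathway holds many further genes. Of 115 other tested biogenesis factors, 47 were lower in GZM (40.9 percent) and 3 were higher (2.61 percent). All genes tested gave 21.7 percent lower and 22.2 percent higher. The median log2 fold change of the 115 factors was -0.51. Among other polymerase I genes 3 of 10 were lower (30 percent) and 1 was higher (10 percent). With so few genes, the share called lower was not far from that over all genes. Polr1g, a subunit specific to polymerase I, fell by 1.47 and Polr1f by 0.71. Polr2k, a small subunit shared by all 3 polymerases, rose by 0.73, or had -0.10 when scaled to library totals. Further subunits tested in this list were Polr1h (0.21), Polr2e (0.32) and Polr2f (-0.22), and none of these passed. Whether shared and specific subunits differ was not tested. Of 8 other genes of small nucleolar ribonucleoproteins and their assembly, 4 were lower (50 percent) and none higher. Ruvbl2, an ATPase that assembles box C/D particles, fell by 1.15, and Shq1, an assembly chaperone of dyskerin, fell by 1.32. Naf1 (-1.04, edgeR adjusted p = 0.0466) and Snu13 (-0.63, edgeR adjusted p = 0.0307) were also lower, each in 7 of 13 alternatives. Nop10, a core protein of the box H/ACA particle like Dkc1, had 0.17 and did not pass.

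Of 40 other small subunit factors, 14 were lower (35 percent) and 1 was higher (2.5 percent), against 21.7 and 22.2 percent of all genes tested. Dimt1, which methylates the small subunit RNA, fell by 1.22, and the helicase Dhx37 by 1.19. The exception was Rcl1, a processome protein related to RNA cyclases, with 192, 227 and 179 CPM in GZM 1 to 3, against 38.0, 39.8 and 68.0 CPM in GM 1 to 3. It rose by 2.04 (SE 0.26, edgeR adjusted p = 0.00236), was higher under all 13 alternatives, and rose by 1.23 when scaled to library totals. Of 43 other large subunit factors, 20 were lower (46.5 percent) and none higher, among them Pak1ip1 (-1.66) and Tex10 (-1.30). Of 14 genes of the exosome and of precursor trimming, 6 were lower (42.9 percent) and 1 was higher (7.14 percent). Mtrex, the helicase that feeds RNA to the nuclear exosome, fell by 0.89 and the exosome nuclease Dis3 by 0.77. Exosc4, a subunit of its ring, rose by 0.67 and had -0.17 when scaled to library totals.

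Ribosomal proteins are what the pathway assembles onto the RNA. Of 75 tested genes of cytosolic ribosomal proteins, 2 were lower and none higher on the TMM scale, with a median log2 fold change of -0.20. Scaled to library totals, where 59.5 percent of all genes tested were lower, 69 of the 75 were lower, with a median of -1.04. Their transcripts summed to 1.64 ± 0.154 percent of counts in GZM, against 3.48 ± 0.562 percent in GM (mean ± SD of 3 libraries a group). The difference between these genes and the biogenesis genes was not tested. Among genes that the deposited annotation places in the nucleolus, the listed genes left out, 185 of 636 were lower and 57 higher, with a median of -0.30. Among those it places in ribosomal RNA processing, 29 of 100 were lower and 5 higher, with a median of -0.34. Both shares called lower, 29.1 and 29 percent, stand beside 21.7 percent lower and 22.2 percent higher over all genes tested.

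**Figure D5:**
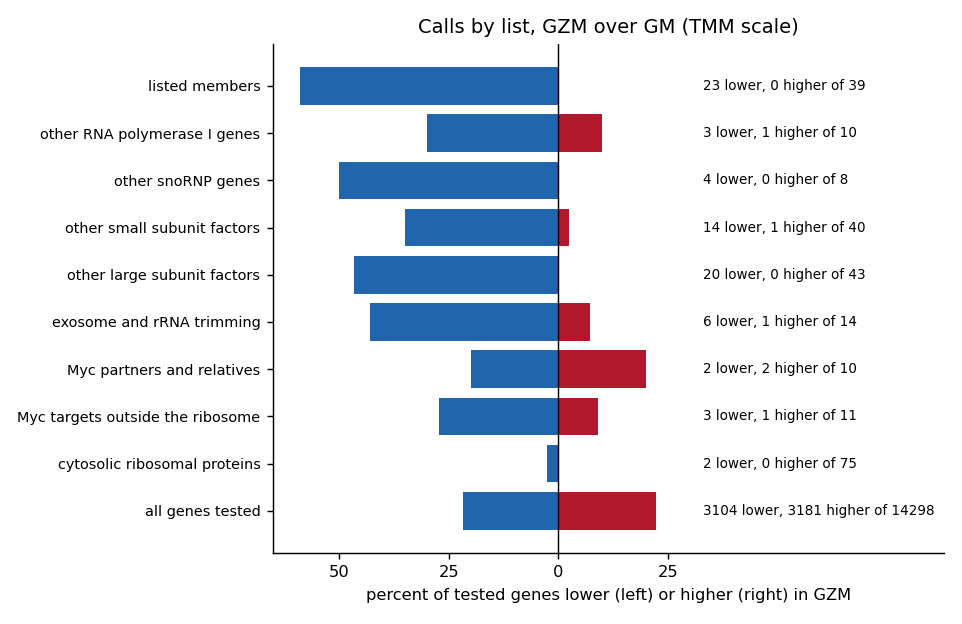
Percent of tested genes called lower (left, blue) or higher (right, red) in GZM on the TMM scale, for the listed members, further lists of the pathway and all genes tested. The listed members have 23 lower and 0 higher of 39, cytosolic ribosomal proteins 2 lower of 75, and all genes tested nearly equal shares in both directions.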

How the data were processed

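Counts and FPKM values were deposited by the authors for each gene and library. The counts are whole and unscaled. Deposited FPKM values equal the count over exon length (the size column, per the file headers) and the library's summed counts: 195738 of 195738 values were recomputed within 0.01. Which aligner and counter were used, and whether counting used strand, is not given in the sources used here. Per the submitters' processing notes the build is mRatBN 7.2, but positions in the table reach 282724300 on chromosome 1, beyond that build, so no position from the table is printed. Columns of GZM are spelled ZGM and were assigned by that spelling and the replicate number. Total counts ran from 13443115 to 16604067 per library. Replicates differed by more than sampling noise (chi-square per degree of freedom 10.5 to 194), and each counts as 1 sample.

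Groups were compared with the quasi-likelihood test of edgeR 4.0.16 in R 4.3.3, on counts with TMM factors after filterByExpr with its defaults, without covariates. P-values were adjusted by Benjamini-Hochberg over all genes tested, at 0.05, and the SE follows from the quasi-F value. All CPM are on the TMM scale; levels between genes are compared per exon length only. The code was tested on simulated data, where it recovered 12 percent of 100 genes changed 2-fold and 81 percent of 100 changed 4-fold. Far fewer genes were changed there than were called here, so these shares do not give the power of the main fit. Alternatives were library totals, median-of-ratios and upper-quartile factors, no filter, a replicate block, libraries left out, and DESeq2 1.42.0. Members, gene lists, markers and alternatives were chosen with earlier results of these data known. Values in every library are given for 13 members named by function and, in each role group, for the most abundant member per exon length and those with the largest rise and fall; from other lists, the 2 genes of smallest p in each direction among those called. Rpl5, Rpl11, Mdm2, Nop10, Naf1, Snu13, Polr1h, Polr2e and Polr2f were named after their values were seen. Of 153 pathway and 75 marker entries, 7 were not matched. Promoters are from RefSeq (GRCr8). Figures were drawn with matplotlib 3.10.9.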

Additional observations from a re-analysis of the deposited data

How the results depend on the processing

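Both the scaling and single libraries moved the counts. Scaled to library totals, the members called lower numbered 39 against 23, and their median log2 fold change was -1.72. The other biogenesis factors then numbered 109 lower and 1 higher, against 47 and 3. With library totals 59.5 percent of all genes tested were lower. DESeq2 and edgeR without the low-count filter each gave 22 members lower, here of 41 members among 21345 genes tested. Of those genes, 15.4 percent were lower by DESeq2 and 14.9 percent without the filter. Median-of-ratios factors gave 23 members (20.7 percent of all genes tested) and upper-quartile factors 31 (26.4 percent). Leaving out both GM 3 and GZM 1 gave 26 (23.0 percent). When each library was left out in turn, members called lower ran from 9 to 29 and the median from -0.93 to -0.52. Other biogenesis factors called lower ran from 11 to 58 and those called higher from 2 to 5. Of all genes tested, 11.2 to 23.5 percent were called lower in these fits. These fits have fewer samples. Every fit, the main one included, assumes a single spread per gene for both groups. With all libraries the members' median coefficient of variation was 8.53 percent in GZM and 34.6 percent in GM. Among single members, Polr1c, at 0.02, turned to -0.83 with library totals, -0.0030 without the filter, -0.094 with upper-quartile factors and -0.11 without GM 3 and GZM 1, and it ran from -0.14 to 0.32 when each library was left out in turn. Dkc1 turned to -0.61 with library totals, and Bysl, which ran from -0.37 to 0.11 over the libraries left out, to 0.11 without GM 2. The cause of these turns was not tested.

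The labels share replicate numbers between groups but do not say that a number marks a shared animal or batch. For this reason the numbers were not taken to pair the samples. Deviations of same-numbered libraries from their group means correlated at -0.14, 0.16 and -0.27 across genes. Those of differently numbered libraries ran from -0.22 to 0.30. Deviations cancel within each group of 3 libraries, so these values cannot decide whether samples are paired. With the replicate number as a block, 18 members were lower (17.4 percent of all genes tested), the members' median was -0.80, and 31 other biogenesis factors were lower.

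Mycn had too few counts to be compared at this depth, and for Nhp2 the reason for the low counts was not tested. With 3 libraries a group, a difference that did not pass is not shown to be absent.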

Other observations

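Of 10 partners and relatives of Myc and Max, 2 were lower and 2 higher in GZM, with a median log2 fold change of -0.03. These shares, 20 percent each, are near those over all genes tested (21.7 percent lower, 22.2 percent higher), so the values that follow describe single genes and not the list. Mga, a repressor that pairs with Max, fell by 1.22 and Mlxip, a nutrient-sensing relative of Myc, by 1.07, both under all 13 alternatives. Mlx, the partner of Mlxip, rose by 0.66, and Mxd3, a Max partner that opposes Myc, by 0.50, while scaled to library totals they had -0.18 and -0.34. Of 11 Myc targets outside ribosome production, 3 were lower (27.3 percent) and 1 higher (9.09 percent), with a median of -0.40. Cad, which starts pyrimidine synthesis, fell by 0.89 and the cell cycle kinase Cdk4 by 0.71. Shmt2, an enzyme of mitochondrial serine use, rose by 0.76 and had -0.10 when scaled to library totals.

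When ribosome assembly is disturbed, free ribosomal proteins such as Rpl5 and Rpl11 are known to bind the ubiquitin ligase Mdm2. Of 9 genes listed for the response to such nucleolar stress, 2 were lower (22.2 percent, near the 21.7 percent over all genes tested) and none higher, also at an unadjusted p under 0.05. Cdkn2a, whose products include a nucleolar inhibitor of Mdm2, had 0.602, 1.70 and 0.314 CPM in GZM 1 to 3, against 8.63, 22.5 and 6.99 CPM in GM 1 to 3. It fell by 3.88 (SE 0.69, edgeR adjusted p = 0.00457), and the groups were far apart, with GZM levels near the detection limit. Counts per gene do not separate the products of Cdkn2a. Cdkn1a, an inhibitor of cyclin-dependent kinases that halts the cell cycle, had 49.3, 45.2 and 41.7 CPM in GZM 1 to 3 and 56.7, 96.1 and 174 CPM in GM 1 to 3, and fell by 1.26 (SE 0.37, edgeR adjusted p = 0.0257). Among the GM libraries Cdkn1a was highest in GM 3, which among these libraries was also the lowest for 32 of the 39 biogenesis genes. Mdm2 had -0.45, Rpl5 -0.25 and Rpl11 -0.29, and these did not pass.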
